A study of Mus musculus with 31 samples.

Results

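The gland of Stat5a-/- mice was set against the gland of wild-type mice on day 6 of pregnancy. The knockout is called BB because 2 Stat5b alleles and no Stat5a allele remain, and wild type is called AABB because all 4 alleles are present. Genes entered when their FPKM (fragments scaled to transcript length and sequencing depth) was at least 1 in either column, which held for 13117 of the 22609 genes in the table. Of these, 12147 reached 1 FPKM in both columns, 387 in BB only and 583 in AABB only. The study sequenced poly(A) RNA of mouse mammary tissue, taken without its lymph nodes, in 6 genotypes at 2 stages. The other genotypes are Null (Stat5abfl/fl;MMTV-Cre, in which both genes are deleted where the MMTV promoter drives Cre), B and A (1 Stat5b or 1 Stat5a allele opposite a joint Stat5ab null allele) and AB (1 allele of each gene, Stat5ab+/null). Every sample carries the mixed strain label 129SV::FVB/N::C57BL/6, and no age is labelled. Stat5a-/- is a germline knockout, so epithelium, stroma, fat and immune cells of the BB mice all carry it. The design text gives the name AABB to wild-type and floxed mice alike, and the day 6 AABB samples are labelled wild type.

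The labels list 3 samples for BB and 3 for AABB at day 6 of pregnancy, whereas the protocol speaks of 2 mice per genotype, and nothing says which samples came from separate animals. The table holds 1 pooled FPKM column per genotype. Each value below is therefore the authors' pooled value. It has no SD, the differences cannot be set against a spread between replicates, and none was tested. Read depth is unknown, and the FPKM values sum to 439261 in BB and 528347 in AABB. Levels are FPKM scaled between the 6 day 6 columns, differences are log2 ratios of scaled FPKM + 1 (BB over AABB), and a gene counts as higher or lower in BB from a 2-fold difference on that scale. The added 1 FPKM understates the differences of weakly expressed genes. In pieces of whole gland, fewer cells of a type and less RNA per cell cannot be told apart.

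STAT5A and STAT5B are closely related transcription factors. Prolactin binding to its receptor activates the kinase JAK2, which phosphorylates them. As dimers they then bind the palindrome TTCNNNGAA near target genes, among them the genes of milk proteins and Cish, whose product feeds back on the receptor. In early pregnancy the mammary ducts branch and alveolar cells begin to form under progesterone and prolactin, with the RANK ligand gene Tnfsf11 and the transcription factor gene Elf5 as known parts of that programme. The gland lies in a fat pad with fibroblasts, adipocytes, vessels and immune cells, whose RNA is in the same sample.

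The STAT5 palindrome stands close to the start of several genes that were far lower in BB, and the windows of 5 of them are shown so that its place in each can be seen. The sequences are RefSeq promoters of build GRCm38.p6, given 5′ to 3′ on the gene's strand with the palindrome in capitals. The lines give 250 bases before the start for Csn1s1 (chr5:87665958-87666207, plus strand), Csn2 (chr5:87699426-87699675, minus strand) and Glycam1 (chr15:103565082-103565331, minus strand). For Csn1s2a (chr5:87774465-87774494, plus strand) and Cish (chr9:107296654-107296683, plus strand) they give 30 bases around palindromes that lie just after the start.
Csn1s1: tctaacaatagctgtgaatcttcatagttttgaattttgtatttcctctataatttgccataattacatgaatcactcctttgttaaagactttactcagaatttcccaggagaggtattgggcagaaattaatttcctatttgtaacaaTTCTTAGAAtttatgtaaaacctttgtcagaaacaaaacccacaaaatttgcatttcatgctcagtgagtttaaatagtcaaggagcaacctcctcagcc
Csn2: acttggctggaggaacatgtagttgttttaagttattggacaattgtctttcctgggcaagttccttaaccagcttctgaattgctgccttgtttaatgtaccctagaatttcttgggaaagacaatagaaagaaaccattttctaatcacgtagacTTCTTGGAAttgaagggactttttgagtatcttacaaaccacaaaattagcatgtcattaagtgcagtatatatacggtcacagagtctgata
Glycam1: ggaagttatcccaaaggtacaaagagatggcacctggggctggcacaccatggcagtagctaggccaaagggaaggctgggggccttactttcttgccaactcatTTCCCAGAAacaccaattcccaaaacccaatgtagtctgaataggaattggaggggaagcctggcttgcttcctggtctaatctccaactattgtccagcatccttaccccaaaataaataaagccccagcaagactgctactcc
Csn1s2a: gtgctTTCTTAGAAttacaatgacttttag
Cish: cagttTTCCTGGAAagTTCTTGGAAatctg

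In Csn1s1 the palindrome TTCTTAGAA begins 100 bases before the start, and in Csn2 TTCTTGGAA begins 93 bases before it. In Glycam1 TTCCCAGAA begins 145 bases before the start. Csn1s2a has TTCTTAGAA at position 21, counted from the start as 1, and Cish has TTCCTGGAA at position 1 and TTCTTGGAA at position 12. Searched as TTCNNNGAA, which reads the same on both strands, the palindrome occurred in 2726 of the 32851 RefSeq windows (8.30%), each running from 250 bases before to 50 bases after a start. Matched by gene, it was in 47 of 460 genes that were higher in BB (10.2%), 28 of 303 that were lower (9.24%) and 707 of 8476 within 2-fold (8.34%). Among the 13 milk protein genes that were lower in BB, 9 had a window in the table and 4 of those held the palindrome. Of the 5 lower alveolar regulator genes, all with a window, 0 held it. A match of letters is a description of the window and not evidence of binding.

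Stat5a transcript was 3.67 in BB and 33.6 in AABB (log2 ratio −2.89), which is the direction the genotype label calls for. Stat5b, the gene that remains in BB, was 14.9 in BB and 16.7 in AABB (−0.15). Across the day 6 columns Stat5a was 13.6 in Null, 12.5 in B, 15.9 in A, 3.67 in BB, 13.4 in AB and 33.6 in AABB, so it was lowest in BB. Stat5b was 9.04 in Null, 12.3 in B, 10.6 in A, 14.9 in BB, 11.7 in AB and 16.7 in AABB. The column labelled B has no intact Stat5a allele by its label and still listed 12.5 for Stat5a, more than BB. A gene-level FPKM does not separate intact from disrupted transcript. Of the genes that flank Stat5a in the RefSeq annotation, Rab5c (−0.02), Ghdc (−0.09), Stat3 (0.24), Ptrf (0.26), Naglu (0.27) and Atp6v0a1 (−0.45) were all within 2-fold. Kcnh4, Hcrt and Hsd17b1 were below 1 FPKM in both columns.

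Across all genes, 687 were at least 2-fold higher in BB (5.24% of those compared) and 513 at least 2-fold lower (3.91%), or 1200 in either direction (9.15%). Counts of called genes in the lists below are to be read beside these shares. At 4-fold, 119 were higher (0.907%) and 65 lower (0.496%). The median log2 ratio of all genes compared was −0.03. Without scaling between columns the median moved by −0.10 and the split turned to 574 higher and 699 lower, so the balance of directions depends on the scaling. The 20 lowest genes with characterised names include caseins and Wap as well as Ucp1, Cidea and Cox7a1 of brown fat, beside genes of neither group such as Gdpd3, St6galnac1, Gjb6 and Coro2a. The 20 highest include the mast cell protease genes Cpa3, Mcpt4, Cma1 and Tpsb2 and the fibroblast genes Pi16 and Gpc3. The ratios ran with transcript length. The 3254 genes with the shortest annotated transcripts (63 to 2131 bases) had a median of −0.32 with 122 higher and 281 lower in BB. The 3250 genes with the longest (4741 bases or more) had a median of 0.25 with 278 higher and 37 lower. After a smooth trend with length and GC content was removed, 22 of 126 calls among the genes named by the selection rule ended, and the losses among listed genes described below are given with their lists. Some listed genes passed 2-fold only after that removal. Among them Cel, Cnn1, Sparc, Cd79b, Plvap and Retn were then higher, and Cdk1 and Prdm16 lower. At the edges of the calls, Wdfy1, Cdon and Serinc3 were just past 2-fold higher and Neo1, Bmp1 and Ccnd2 just short of it. On the other side Vamp8, Nat6 and Lipt1 were just past 2-fold lower and Coq10a, Pmm1 and Uqcc just short. Near the entry floor, the 146 genes whose higher column was between 1 and 1.1 FPKM had log2 ratios from −0.94 to 1.04. The 150 genes just outside, between 0.9 and 1 FPKM, ran from −0.95 to 0.93.

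**Figure D1:**
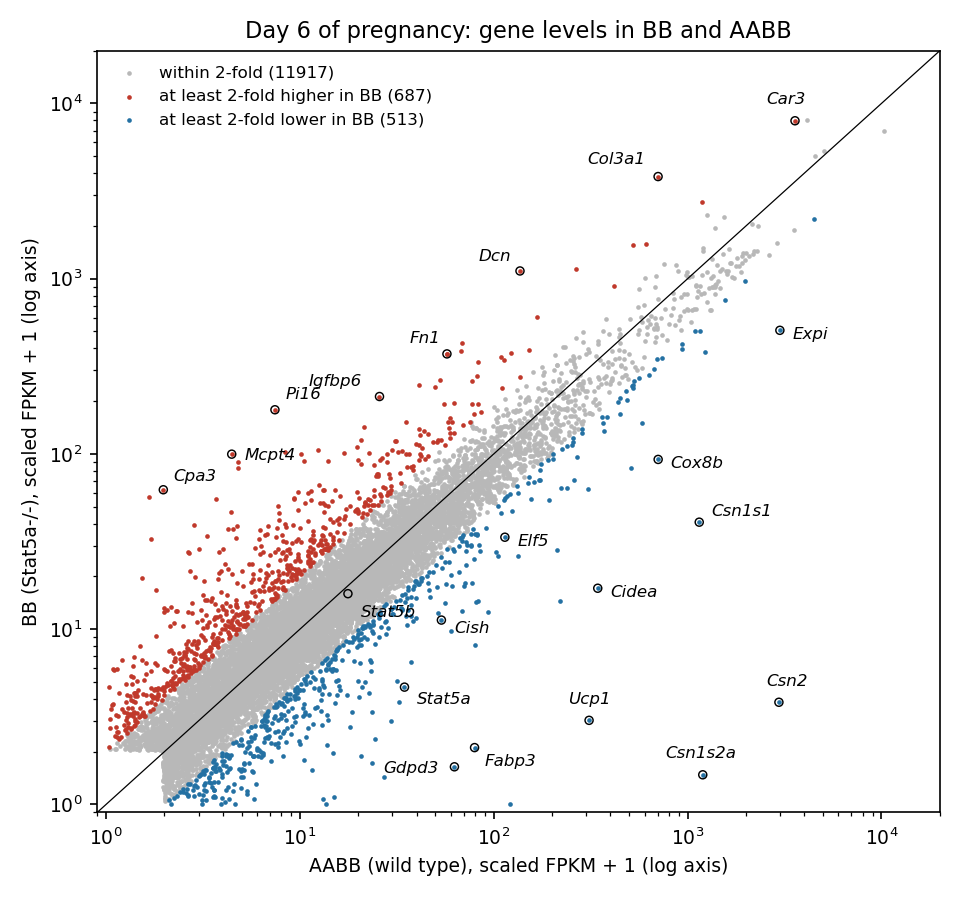
Level of each of the 13117 genes in BB (vertical axis) and AABB (horizontal axis) at day 6 of pregnancy, as scaled FPKM + 1 on log axes, with 1 point per gene and the diagonal marking equal levels. The 687 genes at least 2-fold higher in BB are red and the 513 at least 2-fold lower are blue, with Csn2 and Csn1s2a at the lower right and Cpa3, Mcpt4 and Pi16 at the left above the diagonal.

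Milk protein transcripts were much lower in BB. Of 20 listed symbols 19 had values, and 18 reached 1 FPKM in either column. Of the 18, 13 were lower and 0 higher in BB, with a median log2 ratio of −2.36 beside −0.03 for all genes. Csn2, which encodes beta-casein, stood at 4.96 in Null, 0.102 in B, 0.707 in A, 2.83 in BB, 1.96 in AB and 2959 in AABB. Wild type alone was high, and BB lay within the range of the other 4 genotypes, 0.102 to 4.96. The log2 ratio of BB over AABB was −9.59. Csn1s2a (alpha-S2A-casein) was 0.476 in BB and 1197 in AABB (−9.66). Csn1s1 (alpha-S1-casein) was 39.8 in BB and 1148 in AABB (−4.82), and here BB and A (33.3) stood above Null (2.62), B (2.92) and AB (7.84). Kappa-casein behaved less extremely, with Csn3 at 27.4 in BB and 211 in AABB (−2.90).

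The whey and secreted proteins divided more widely. Expi, a WAP-domain gene and the most abundant of the list in AABB, was 507 in BB and 2993 in AABB (−2.56). Wap, which encodes whey acidic protein, was barely listed in BB at 0.0976 and stood at 14.0 in AABB (−3.77). Lalba (alpha-lactalbumin, the regulatory subunit of lactose synthase) was 0.575 in BB and 10.5 in AABB (−2.87). Spp1, encoding osteopontin, was 7.11 in BB and 79.0 in AABB (−3.30), and the secreted mucin gene Glycam1 was 13.5 in BB and 81.6 in AABB (−2.52). Lao1, which encodes an L-amino acid oxidase, was listed at 0 in BB and at 3.62 in AABB. Ltf, encoding lactoferrin, was 11.3 in BB and 50.6 in AABB (−2.07). Genes for proteins of the milk fat globule lay closer to wild type. Btn1a1 was 8.43 in BB and 26.9 in AABB (−1.57), Mfge8 was 333 in BB and 519 in AABB (−0.64), and Xdh was 45.5 in BB and 52.5 in AABB (−0.20). Trf, encoding transferrin, was 1214 in BB and 755 in AABB (0.68). The list made up 0.487% of all FPKM in BB and 1.99% in AABB, so it took up little of either library.

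Among the 9 genes of the WAP-domain and antiprotease list that reached 1 FPKM, 4 were lower and 0 higher. Expi, given above, was not counted in that list. Wfdc12 was 25.3 in BB and 133 in AABB (−2.35), and Wfdc3 was 1.29 in BB and 8.94 in AABB (−2.12). Spint2, a membrane inhibitor of serine proteases, was 138 in BB and 284 in AABB (−1.03). Wfdc12 was not evenly low in the mutants, at 3.05 in Null, 1.75 in B, 18.1 in A, 25.3 in BB, 38.1 in AB and 133 in AABB.

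**Figure D2:**
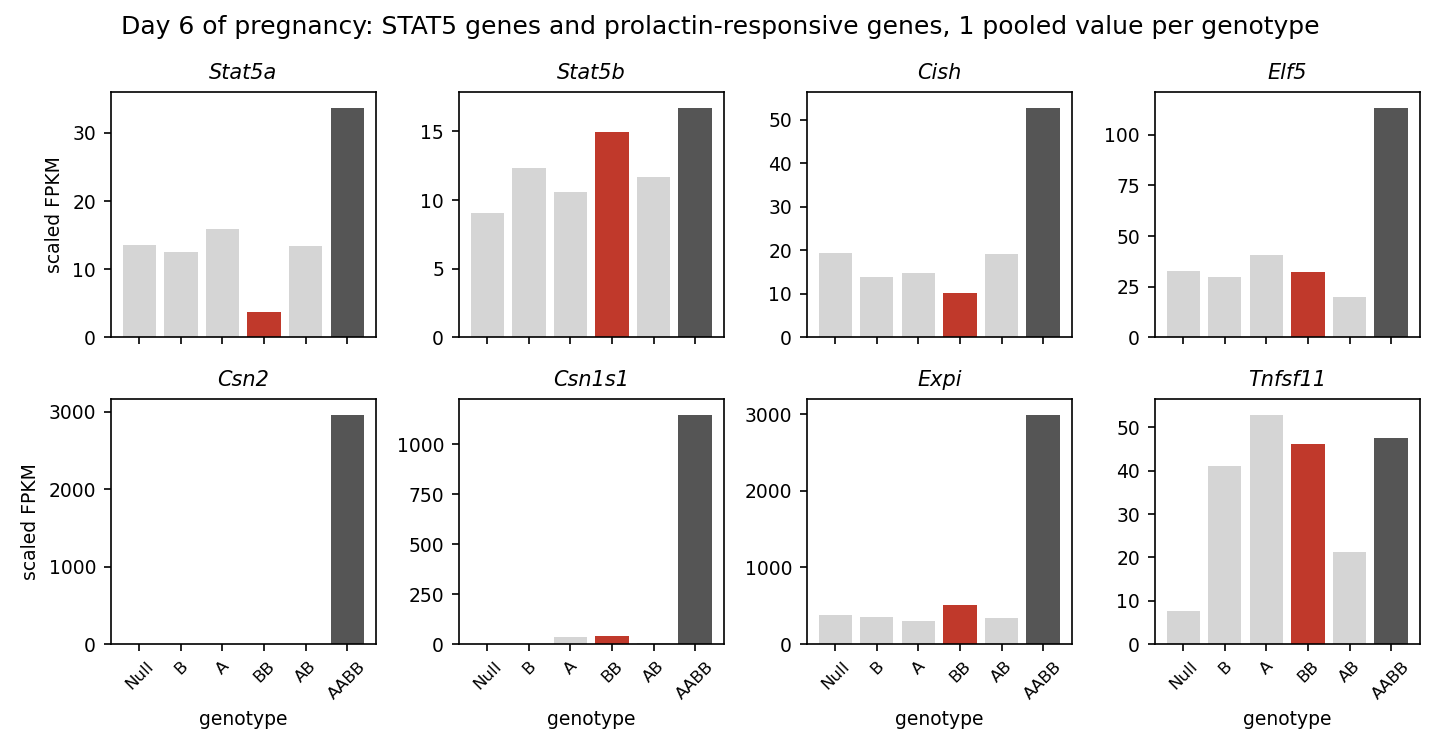
Scaled FPKM of Stat5a, Stat5b and 6 prolactin-responsive genes in each genotype at day 6 of pregnancy, 1 pooled value per bar without error, with BB in red, AABB in dark grey and the other genotypes in light grey. Csn2, Csn1s1, Cish and Elf5 are tallest in AABB, whereas Tnfsf11 in BB (46.1) nearly equals AABB (47.5).

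Most genes of the prolactin pathway itself were within 2-fold. Prlr, the prolactin receptor, was 29.7 in BB and 12.7 in AABB (1.16). Jak1 was 52.6 in BB and 25.2 in AABB (1.03), and the EGF receptor gene Egfr was 19.7 in BB and 4.73 in AABB (1.85). Jak2 stayed within 2-fold at 14.9 in BB and 9.98 in AABB (0.54), as did the growth hormone receptor gene Ghr at 105 in BB and 80.5 in AABB (0.38). Of the 12 receptor, kinase and STAT genes, these 3 were higher and Stat5a alone lower. Jak1 (0.91) fell short of 2-fold without scaling, and Prlr (0.68) and Jak1 (0.83) did so once the trend with transcript length and GC content was removed. Of the 15 feedback inhibitors, Cish alone passed 2-fold, beside 5.24% higher and 3.91% lower over all genes. Cish was 19.5 in Null, 13.9 in B, 14.9 in A, 10.3 in BB, 19.2 in AB and 52.7 in AABB, lowest in BB and highest in wild type (−2.25). Socs2, another STAT5-responsive inhibitor, was 8.94 in BB and 18.6 in AABB (−0.98). Without the length and GC trend Socs2 passed 2-fold (−1.14). Socs4 was 8.01 in BB and 3.78 in AABB (0.92), and Socs1, Socs3, Socs5, Socs6 and Socs7 had log2 ratios from −0.15 to 0.14.

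Alveolar regulators were lower in 5 of 24 cases and higher in 0, with a median of −0.22. Elf5, an ETS factor needed for alveolar cells, was 32.9 in Null, 29.9 in B, 40.8 in A, 32.5 in BB, 20.1 in AB and 113 in AABB (−1.77). The Wnt agonist gene Rspo1 was 25.3 in BB and 105 in AABB (−2.01). Cebpb was 28.6 in BB and 65.1 in AABB (−1.16), the growth factor gene Igf2 was 2.22 in BB and 6.48 in AABB (−1.22), and Tph1, the enzyme of serotonin synthesis, was 9.28 in BB and 20.7 in AABB (−1.08). Cebpb was short of 2-fold without the length and GC trend (−0.72), which left 4 lower genes. Not every gene of the programme was low. Tnfsf11, which encodes RANKL, was 7.54 in Null, 41.0 in B, 52.9 in A, 46.1 in BB, 21.2 in AB and 47.5 in AABB (−0.04). Gata3 (−0.66), Id2 (−0.59), Ehf (−0.54) and Ccnd1 (−0.16) were within 2-fold.

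Hormone-sensing epithelium carries the steroid receptors. Of 13 markers 5 were higher (Esr1, Prlr, Cxcl15, Ly6a and Wnt5a) and 1 lower in BB, with a median of 0.67. Prlr, Cxcl15 and Wnt5a are in other lists as well, and the part of cells outside this epithelium was not tested. The estrogen receptor gene Esr1 was 14.7 in BB and 6.60 in AABB (1.05), and the progesterone receptor gene Pgr was 6.52 in BB and 3.27 in AABB (0.82). The lower marker was Cited1, a coregulator, at 54.5 in BB and 154 in AABB (−1.48). Areg, Foxa1 and Calca were within 2-fold at −0.17, −0.06 and −0.67, as was Tnfsf11, given above. Removing the length and GC trend left Esr1 (0.70), Wnt5a (0.65), Prlr (0.68) and Cited1 (−0.95) short of 2-fold, and Esr1 (0.94), Wnt5a (0.90) and Ly6a (0.90) were short of it without scaling.

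Luminal markers were lower in 5 of 22 cases and higher in 0 (median −0.54), and 3 of the 5 (Csn3, Elf5 and Spint2) belong to lists above. The tight junction genes Tjp3 (15.9 in BB, 37.5 in AABB) and Cldn7 (30.8 in BB, 67.4 in AABB) were the others, and Cldn7 was short of 2-fold (−0.71) without the length and GC trend. The structural keratins stayed close to wild type, with Krt8 at 257 in BB and 312 in AABB (−0.27) and Krt18 at 277 in BB and 380.1 in AABB (−0.45). Basal and myoepithelial markers went the other way, 5 of 15 higher and 0 lower with a median of 0.87. Krt5 was 126 in BB and 40.6 in AABB (1.62), Krt17 was 47.8 in BB and 16.4 in AABB (1.49), and Trp63, the transcription factor of basal cells, was 10.3 in BB and 3.45 in AABB (1.35). Sparc (0.87) and Vim (0.24), which fibroblasts express as well, are in this list. Krt15, a keratin gene outside this list that was chosen after its value was seen, was 65.5 in BB and 11.6 in AABB (2.40). The epithelial lists thus differed in sign, and the part that cell numbers have in that was not tested.

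Proliferation genes were mostly close to wild type, with 2 of 31 lower, 0 higher and a median of −0.29. Over all genes 3.91% were lower. Mki67 was 3.16 in Null, 7.74 in B, 7.74 in A, 1.95 in BB, 2.08 in AB and 8.46 in AABB (−1.68). Other mitotic genes did not share that depth, since Top2a was 11.7 in BB and 12.3 in AABB (−0.07) and Cdk1 was 6.34 in BB and 12.4 in AABB (−0.87). Birc5 was the other lower gene, at 2.73 in BB and 6.55 in AABB (−1.02). In the survival list 3 of 16 genes were lower, Bik, Pim1 and Birc5, and 0 higher. Pim1, a kinase gene induced by STAT5, was 11.2 in BB and 24.8 in AABB (−1.08). Without the length and GC trend Pim1 (−0.93) and Bik (−0.92) were just short of 2-fold.

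Fatty acid synthesis in mammary tissue takes place in epithelium and in fat. The lipid list had a median of −0.00 with 24 of 31 genes within 2-fold, while 7 were lower and 0 higher. Without the length and GC trend Aldoc (−0.98) was short of 2-fold and Lpin1 (−1.22) passed it, which again made 7 lower genes. Gdpd3 was 0.639 in BB and 61.7 in AABB (−5.26), and Fabp3, a fatty acid carrier of muscle, brown fat and milk-secreting cells, was 1.11 in BB and 78.6 in AABB (−5.24). Gdpd3 was not low in every mutant, at 31.6 in Null, 1.76 in B, 1.65 in A, 0.639 in BB and 0.553 in AB. Olah, the thioesterase that ends medium-chain fatty acid synthesis in milk, was 0.303 in BB and 3.56 in AABB (−1.81). Of the synthetic enzyme genes, Fasn (2255 in BB, 1533 in AABB, 0.56) and Acly (761 in BB, 705 in AABB, 0.11) were within 2-fold. Scd1 was just short of 2-fold higher, at 8050.1 in BB and 4131 in AABB (0.96). The carboxylase gene Acacb was lower, at 27.0 in BB and 84.2 in AABB (−1.61). Plin2 was lower too, at 201 in BB and 488 in AABB (−1.28).

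**Figure D3:**
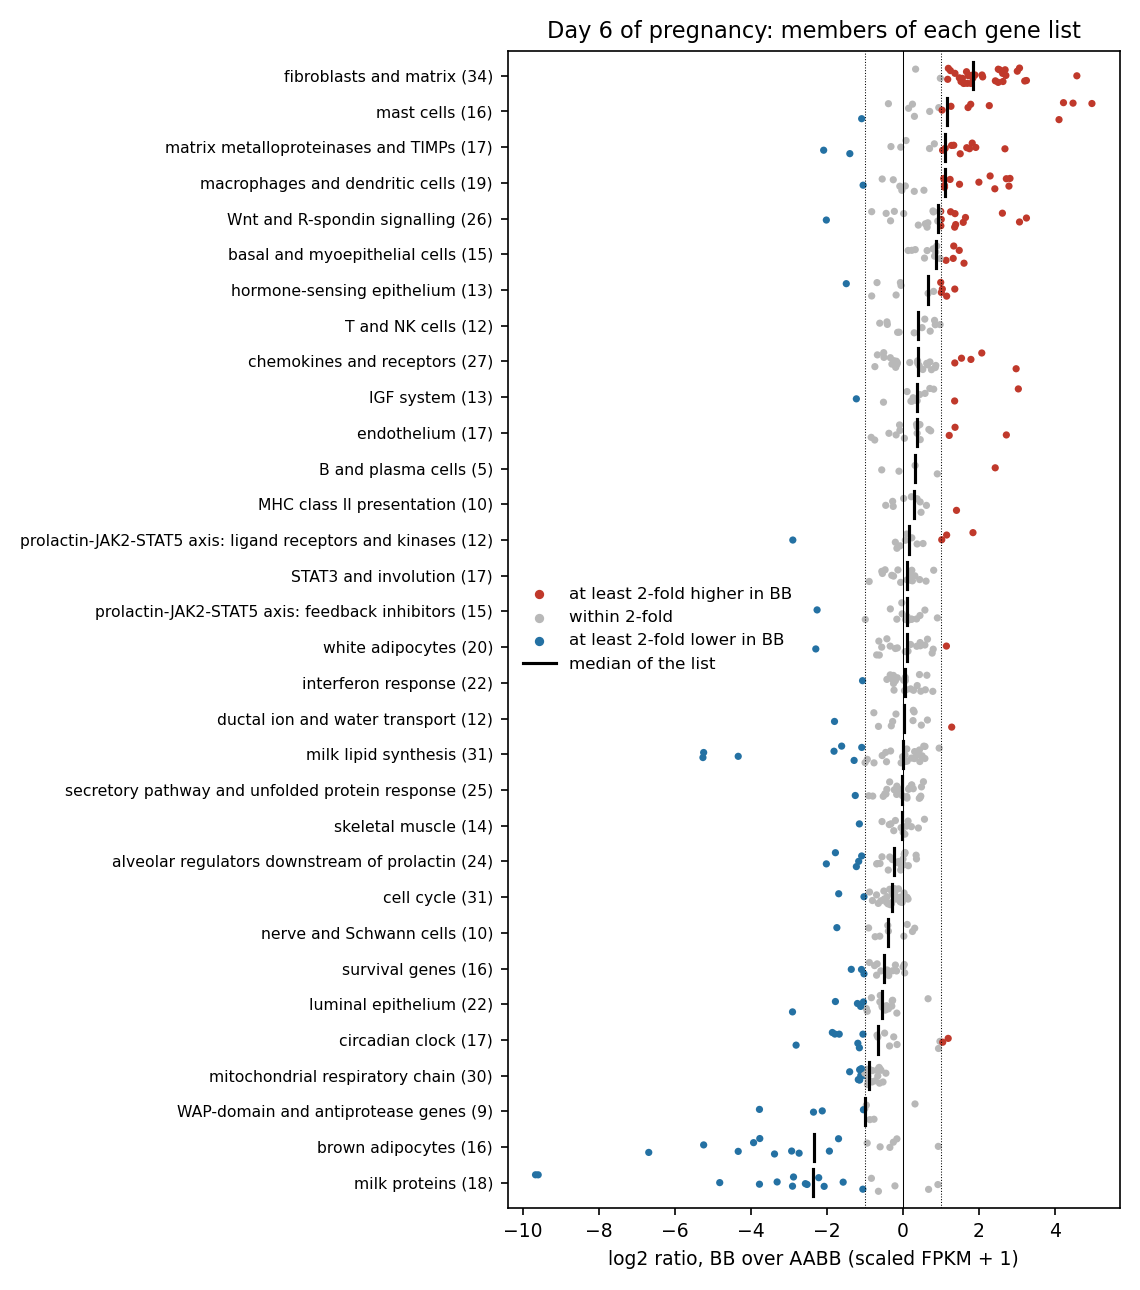
Log2 ratio of BB over AABB at day 6 of pregnancy (horizontal axis) for each gene of 32 lists, sorted by the list median, with the number of genes in brackets. Points are genes, red when at least 2-fold higher in BB, blue when at least 2-fold lower and grey otherwise, black strokes are medians and dotted lines mark 2-fold. Fibroblast and matrix genes are at the top with a median of 1.84 and milk protein genes at the bottom with −2.36.

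Fibroblast and matrix genes were higher in BB almost throughout. All 34 listed genes reached 1 FPKM, 32 were higher in BB and 0 lower, and the median was 1.84. Ly6c1 (0.34) and Lox (0.99) were the exceptions. Dcn, encoding the proteoglycan decorin, was 436 in Null, 1137 in B, 1157 in A, 1106 in BB, 981 in AB and 136 in AABB (3.02). Wild type was lowest and Null next, and the 4 germline mutants were high. Pi16, a marker of adventitial fibroblasts, was 17.1 in Null, 127 in B, 125 in A, 178 in BB, 151 in AB and 6.43 in AABB (4.59). Dpp4, found on the same cells, was 15.7 in BB and 0.803 in AABB (3.21). The fibroblast receptor gene Pdgfra was 45.1 in BB and 6.80 in AABB (2.56).

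Collagens did not all follow the same pattern across genotypes. Col3a1 was 3828 in BB and 704 in AABB (2.44), and Col1a1 was 327 in Null, 329 in B, 298 in A, 1579 in BB, 1416 in AB and 607 in AABB (1.38). For Col1a1 the genotypes with 2 alleles, BB and AB, were high, and those with fewer alleles stood below wild type. Among 32 collagen genes taken by name 15 were higher and 2 lower in BB. Fn1 (fibronectin) was 371 in BB and 56.4 in AABB (2.70), Fbn1 (fibrillin 1) was 90.4 in BB and 12.9 in AABB (2.72), and Postn (periostin) was 1132 in BB and 265 in AABB (2.09). Other fibroblast products among the 20 highest genes of all were Gpc3, a glypican, at 102 in BB and 7.39 in AABB (3.61), Ogn, a small proteoglycan, at 90.04 in BB and 9.52 in AABB (3.11), and Col14a1 at 98.5 in BB and 9.13 in AABB (3.30). Kera, encoding keratocan, was 26.6 in BB and 1.66 in AABB (3.38), and the other 4 columns ranged from 0.797 in Null to 5.99 in AB.

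Among 17 matrix-degrading metalloproteinases and their TIMP inhibitors 10 were higher and 2 lower. Adamts5 (1.05) was short of 2-fold without the length and GC trend (0.65). Mmp2 (gelatinase A) was 372 in BB and 56.6 in AABB (2.69), and Mmp3 (stromelysin 1) was 117 in BB and 30.03 in AABB (1.93). Timp2 was 277 in BB and 80.9 in AABB (1.76). The lower genes were Timp4, at 17.4 in BB and 76.6 in AABB (−2.08), and the macrophage elastase gene Mmp12, at 11.9 in BB and 32.8 in AABB (−1.39).

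Wnt pathway genes were higher in 12 of 26 cases and lower in 1, the Rspo1 described above, with a median of 0.94. Without the length and GC trend Wnt5a (0.65) was short of 2-fold, while Wnt11 (1.04) and Sfrp5 (1.24) passed it. The secreted inhibitors were the highest, Sfrp4 at 27.7 in BB and 2.00 in AABB (3.26) and Sfrp2 at 104 in BB and 11.4 in AABB (3.08). Both are also in the fibroblast list. The ligand gene Wnt2 was 12.4 in BB and 1.17 in AABB (2.63), and the R-spondin receptor gene Lgr6 was 24.3 in BB and 7.35 in AABB (1.60). Axin2, a common readout of Wnt signalling, was 8.05 in BB and 7.87 in AABB (0.03). In the IGF system 2 of 13 genes were higher, Igfbp6 at 212 in BB and 24.7 in AABB (3.05) and Igfbp4 at 391 in BB and 151 in AABB (1.37). Igf2 was the 1 lower gene. The shares over all genes were 5.24% higher and 3.91% lower.

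Mast cell proteases supplied the highest ratio of any gene with a characterised name. Cpa3, carboxypeptidase A3, was 3.98 in Null, 89.1 in B, 85.0 in A, 61.5 in BB, 44.5 in AB and 0.974 in AABB (4.98). As with Dcn, wild type was lowest and Null next, and the germline mutants were high. The chymase genes Mcpt4 (98.7 in BB, 3.45 in AABB) and Cma1 (89.0 in BB, 3.78 in AABB) and the tryptase gene Tpsb2 (82.2 in BB, 3.79 in AABB) had ratios of 4.49, 4.24 and 4.12. Fcer1a, the alpha chain of the IgE receptor, was 2.74 in BB and 0.0804 in AABB (1.79). Of 20 listed genes 16 reached 1 FPKM, and 9 of the 16 were higher and 1 lower. Il1rl1 (0.97) and Mrgprb2 were just short of 2-fold without the length and GC trend. The lower gene was Tph1, which also stands among the alveolar regulators, and Kit, which luminal cells also express, was 44.0 in BB and 57.3 in AABB (−0.37).

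Of 19 macrophage and dendritic cell genes 11 were higher and 1, the integrin gene Itgax, lower (−1.04). Csf1r, the receptor for the macrophage growth factor, was 98.3 in BB and 34.2 in AABB. Genes of tissue-resident macrophages were the highest. Mrc1, the mannose receptor, was 9.66 in Null, 58.0 in B, 58.0 in A, 60.4 in BB, 56.7 in AB and 10.4 in AABB (2.43). Cd163, a scavenger receptor, was 32.1 in BB and 3.67 in AABB (2.83), Cd209a was 19.0 in BB and 1.87 in AABB (2.80), and Lyve1 was 12.3 in BB and 0.998 in AABB (2.73). Cd209b, a lectin gene of the same family, was 38.1 in BB and 1.86 in AABB (3.78), and 5 of 7 Cd209 genes were higher. The list median was 1.10. Cd68, at 83.9 in BB and 99.7 in AABB (−0.25), and Lyz2, at 616 in BB and 648 in AABB (−0.07), were among the 7 genes within 2-fold.

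Chemokine and chemokine receptor genes were higher in 5 of 27 cases and lower in 0 (9 higher without the length and GC trend). They were Ccl24 (20.4 in BB, 1.70 in AABB), Ccl8 (86.5 in BB, 19.6 in AABB), the eosinophil attractant gene Ccl11 (45.5 in BB, 12.4 in AABB), Cxcl13 (2.96 in BB, 0.351 in AABB) and Cxcl15 (11.1 in BB, 3.68 in AABB). Most lymphocyte genes were close to or below the floor in BB and AABB. Of 18 listed B and plasma cell symbols 15 had values, and 5 reached 1 FPKM. Igj, the joining chain of secreted antibody, was the 1 higher gene at 19.8 in BB and 2.84 in AABB (2.44). The B cell receptor genes Cd79a (1.64 in BB, 1.10 in AABB) and Cd79b (4.50 in BB, 1.92 in AABB) were within 2-fold, whereas B held 61.0 for Cd79a and A 53.5. Of 20 listed T and NK cell symbols 19 had values, 12 reached 1 FPKM and 0 passed 2-fold in either direction. Cd3d, Cd8b1 and Ccr7 were 2-fold higher without the length and GC trend. At these levels the added 1 FPKM holds the ratios down, so the count of 0 says little. Cd3g was 2.59 in BB and 0.809 in AABB (0.99), whereas Cd3e was 1.69 in BB and 3.09 in AABB (−0.60). The summed level of the T and NK cell list was 24.7 in BB and 18.9 in AABB. Interferon response genes had a median of 0.06, with 1 of 22 lower (Ifit3, −1.05, and −0.88 without the length and GC trend) and 0 higher.

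**Figure D4:**
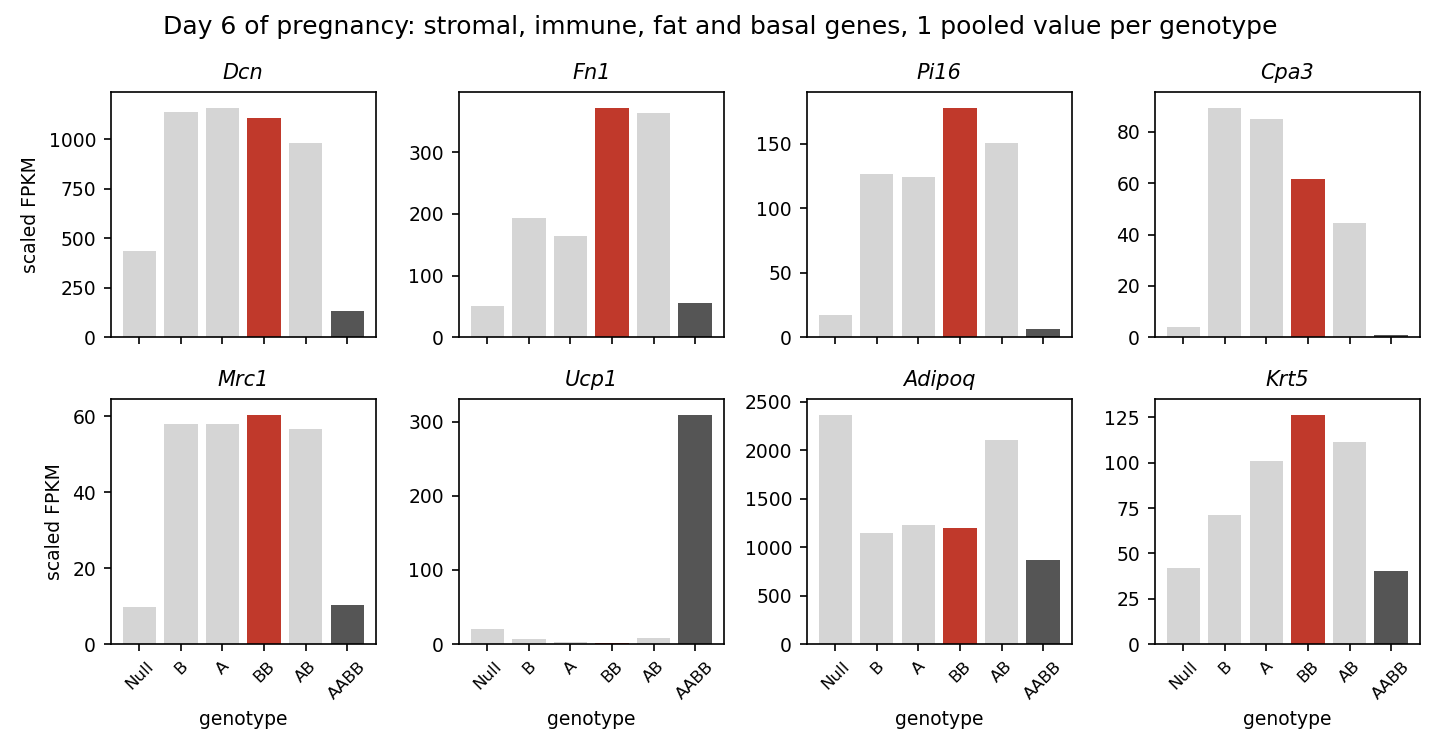
Scaled FPKM of 8 stromal, immune, fat and basal epithelial genes in each genotype at day 6 of pregnancy, 1 pooled value per bar without error, with BB in red, AABB in dark grey and the other genotypes in light grey. Dcn, Pi16, Cpa3 and Mrc1 are high in B, A, BB and AB and lower in Null and AABB, while Ucp1 is high in AABB (309 against 2.02 in BB).

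Genes of thermogenic fat formed the other low group beside milk proteins. Brown adipocytes burn fat through the uncoupling protein encoded by Ucp1. It was 20.6 in Null, 7.57 in B, 3.36 in A, 2.02 in BB, 7.98 in AB and 309 in AABB (−6.68), so wild type stood apart from all 5 other columns. Of 20 listed genes 16 reached 1 FPKM, and 10 of the 16 were lower and 0 higher in BB, with a median of −2.33. The mitochondrial genes Cox7a1 (13.5 in BB, 219 in AABB) and Cox8b (92.1 in BB, 704 in AABB) had ratios of −3.92 and −2.92. Elovl3, a fatty acid elongase of brown fat, was 0.733 in BB and 22.5 in AABB (−3.76), but 6.33 in Null, 16.4 in B and 15.5 in A. Acot11 was 1.36 in BB and 23.4 in AABB (−3.37), and Otop1 was 1.75 in BB and 17.2 in AABB (−2.73). Cidea, which coats lipid droplets in brown fat and in secretory epithelium, was 217 in Null, 26.9 in B, 28.7 in A, 16.1 in BB, 23.3 in AB and 343 in AABB (−4.33). Of the regulators of the brown programme, Prdm16 was 0.933 in BB and 2.69 in AABB (−0.93, and −1.20 without the length and GC trend). Ppargc1a was 0.929 in BB and 1.14 in AABB (−0.15), and Ebf2 was 6.53 in BB and 2.93 in AABB (0.94). The added 1 FPKM understates differences at such low levels. How much brown fat lay in the pieces taken from each genotype is not labelled, and its part in these values was not tested.

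White adipocyte genes were level, with 1 of 20 higher, 1 lower and a median of 0.11. Adipoq (adiponectin) was 2364 in Null, 1149.5 in B, 1231 in A, 1198 in BB, 2103 in AB and 870.1 in AABB (0.46). Car3 was the higher gene, at 7969 in BB and 3582 in AABB (1.15). Nnat was the lower, at 61.8 in BB and 305 in AABB (−2.29). Fabp4 (−0.55), Plin1 (0.37) and Pparg (−0.19) were within 2-fold.

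Respiratory chain genes were lower in 8 of 30 cases and higher in 0, with a median of −0.87. Cox5a was 169 in BB and 445 in AABB (−1.39), Cox6c was 280.4 in BB and 631 in AABB (−1.17), and Etfb was 243 in BB and 518 in AABB (−1.09). All 30 had a negative log2 ratio, and the summed level of the list was 6248 in BB and 11417 in AABB. The brown adipocyte list moved with it, at summed levels of 145 in BB and 1741 in AABB, and its part in the respiratory chain values was not tested. Transcript length moved with it too. With the length and GC trend removed, the respiratory chain median was −0.59 and 2 of 30 genes were lower, Etfb (−0.55) no longer among them. Ribosomal protein genes, also short, had a median of −0.56 with 4 of 79 lower and 0 higher, and −0.17 with 0 past 2-fold after that removal. The milk protein (−2.11), brown adipocyte (−1.99) and fibroblast (1.91) medians changed little under it.

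Of 17 clock genes 7 were lower and 2, Clock and Rora, higher. Dbp, an output gene of the clock, was 45.6 in Null, 39.1 in B, 38.1 in A, 2.38 in BB, 5.00 in AB and 22.6 in AABB (−2.80). Per2 was 1.51 in BB and 8.04 in AABB (−1.85), and Per3 was 1.61 in BB and 7.29 in AABB (−1.67). In antiphase genes the sign turned, with Clock at 11.0 in BB and 4.24 in AABB (1.20) and Arntl at 10.6 in BB and 4.88 in AABB (0.98). Without the length and GC trend Clock (0.74) and Rora (0.61) were short of 2-fold, so 0 genes were higher, and the same 7 genes were lower. BB and AB shared the low Dbp and Per2 levels, and B and A did not. The hour of tissue collection is not labelled, and its part was not tested.

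Other lists held few differences. At their size, 1 or 2 called genes are near the shares over all genes, 5.24% higher and 3.91% lower. The secretory pathway and unfolded protein list had 1 of 25 genes lower (Atf4, 45.1 in BB and 108 in AABB) and a median of −0.01. The STAT3 and involution list had 0 of 17 past 2-fold in either direction and a median of 0.12. Endothelial genes were higher in 3 of 17 cases (Lyve1, Vwf and Tek) and lower in 0, with Pecam1 at 62.0 in BB and 44.7 in AABB (0.46). Of 12 ion and water transport genes of ducts, Slc12a2 was higher (46.3 in BB, 18.3 in AABB) and Kcnn4 lower (16.6 in BB, 59.9 in AABB). Slc12a2 had 0.92 without the length and GC trend, which left 0 higher genes in that list. In the MHC class II list 1 of 10 genes was higher (H2-DMb2, 6.83 in BB and 1.93 in AABB), and Cd74 was 586 in BB and 379 in AABB (0.63). Muscle genes, a sign of muscle in the tissue piece, summed to 171 in BB and 176 in AABB, with 1 of 14 lower (Tcap, −1.14, and −0.56 without the length and GC trend) and 0 higher, whereas AB summed to 8212. In nerve and Schwann cell genes 1 of 10 was lower, S100b at 3.26 in BB and 13.1 in AABB (−1.73).

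The same genotypes were compared at parturition, within 12 hours of delivery, in other samples and in a table scaled on its own. Of the 687 genes higher in BB at day 6, 631 reached 1 FPKM there and 355 (56.3%) were again at least 2-fold higher, while 15 (2.38%) were lower. The share of higher genes among all 12182 genes measured at both stages was 8.54%. Of the 513 lower genes, 461 were measured at parturition, 152 (33.0%) were again lower and 21 (4.56%) higher, beside 5.34% lower among all measured. Among the 12182 genes measured at both stages, the shared genes made up 34.1% of those higher at parturition and 23.4% of those lower there. The fibroblast list had medians of 1.84 at day 6 and 1.96 at parturition, with 30 of 34 genes higher at the later stage. Cish (−2.25 at day 6, −2.10 at parturition), Stat5a (−2.89, −3.76) and Cpa3 (4.98, 3.24) held their direction.

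Other groups differed between stages in size. The milk protein median was −2.36 at day 6 and −1.42 at parturition, where Csn2 had −1.14 and Csn1s2a −1.08. By then the list made up 43.7% of all FPKM in BB and 68.2% in AABB. Wap was −3.77 at day 6 and −3.02 at parturition. St6galnac1, a sialyltransferase gene, was 0.00293 in BB and 12.7 in AABB at day 6 (−3.77), and its ratio was −6.06 at parturition. Elf5 was −1.77 at day 6 and −0.58 at parturition. The lipid list, with a median of −0.00 at day 6, had a median of −1.44 at parturition with 20 of 30 genes lower. The brown adipocyte median was −2.33 at day 6 and −0.44 at parturition, where Ucp1 was 21.6 in BB and 11.8 in AABB (0.83). These differences between stages were not tested.

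**Figure D5:**
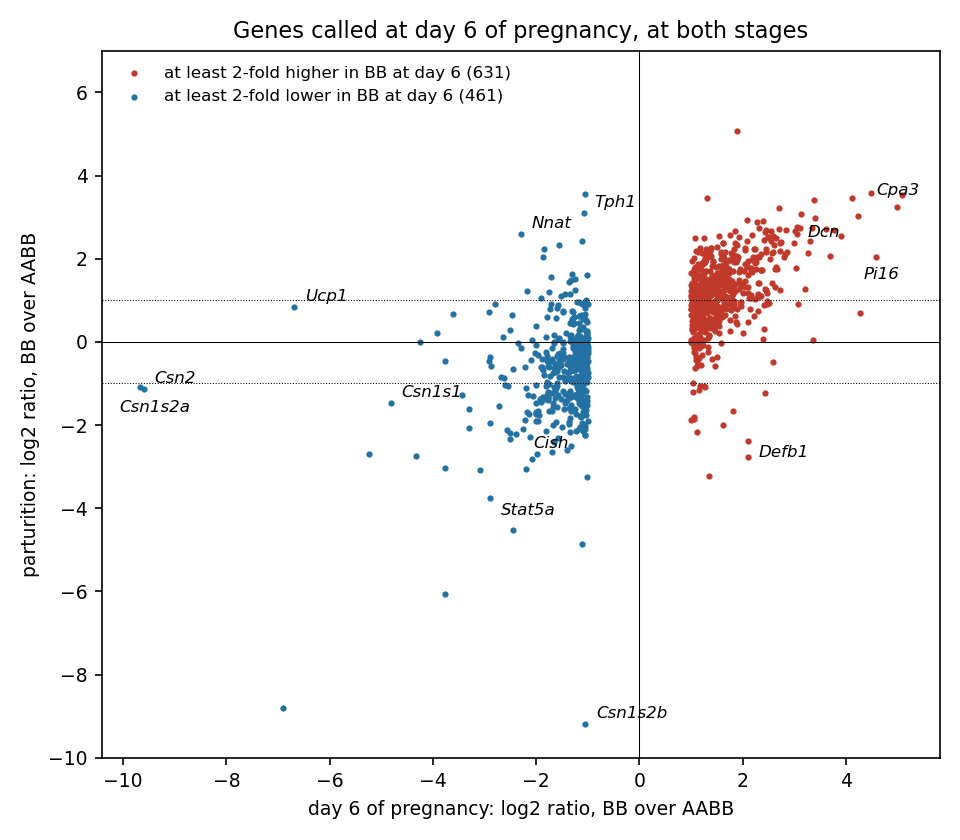
Log2 ratio of BB over AABB at day 6 of pregnancy (horizontal axis) and at parturition (vertical axis) for the genes called at day 6 and measured at both stages, 1 point per gene, with 631 genes higher at day 6 in red and 461 lower in blue. Dotted lines mark 2-fold at parturition, where 355 of the red genes lie above the upper line and 152 of the blue genes below the lower line.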

How the data were processed

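The deposited values are FPKM per gene symbol, with 1 column per genotype and stage, and since more samples are listed than columns, each column is taken as a value that the authors pooled over the samples of a genotype. Base calling with CASAVA and alignment with TopHat to mm9 are named in the submitters' processing notes, and the FPKM program and annotation are not given in the sources used here. Day 6 of pregnancy has 18 listed samples and parturition 13. The planned limma test needs a column per sample and could not be used.

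Columns of a stage were divided by the median ratio to their geometric mean over genes that reach 1 FPKM throughout (11733 at day 6, 10864 at parturition; factors 0.956 for BB and 1.04 for AABB at day 6). Ratios used a pseudocount of 1 FPKM. The 2 tables were not compared in level. Read depth is unknown. Length and GC content came from GENCODE M21 by symbol for 11900 genes and by a synonym for 1105 (99.1% in all), without its coordinates, since its build is not mm9. The ratio code was checked on simulated data with equal numbers of genes raised and lowered and no trend with length or GC content. All changed genes had at least 5 FPKM, so the check does not cover weakly expressed genes, unbalanced changes or such trends. Alternatives were no scaling, scaling over BB and AABB alone, a pseudocount of 0.1, no floor, a floor of 5 FPKM, and a lowess trend of length and GC removed.

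Named genes are Stat5a, Stat5b, the 20 highest and 20 lowest genes with characterised names, up to 6 genes per list by size of ratio, the neighbours of Stat5a and the genes nearest the 2-fold line. Other genes, the families taken by name and the column patterns were chosen after their values were seen. The comparison and all 32 lists were chosen with earlier results of these data known. Python 3.11.15, numpy 2.4.6, pandas 2.3.3, statsmodels 0.14.6 and matplotlib 3.10.9 were used.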

Additional observations from a re-analysis of the deposited data

Results flagged for a closer look

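Among the genes named by the rule, 4 differed at least 2-fold between BB and AABB in opposite directions at the 2 stages, and the difference between the stages was not tested. Nnat, an imprinted gene expressed in adipocytes, had a log2 ratio of −2.29 at day 6 of pregnancy (61.8 in BB, 305 in AABB) and 2.59 at parturition (87.95 in BB, 13.8 in AABB). Bik, which encodes a pro-apoptotic protein, had −1.35 at day 6 (7.12 in BB, 19.7 in AABB) and 1.16 at parturition (11.0 in BB, 4.36 in AABB). Tph1 had −1.08 at day 6 (9.28 in BB, 20.7 in AABB) and 3.10 at parturition (33.7 in BB, 3.06 in AABB). Igj, the antibody joining chain, had 2.44 at day 6 (19.8 in BB, 2.84 in AABB) and −1.22 at parturition (8.18 in BB, 20.4 in AABB).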

How the results depend on the processing

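No paired analysis was possible because each genotype has 1 pooled column, and for the same reason no replicate could be left out and the planned limma fits were not run. With a pseudocount of 0.1 in place of 1 FPKM, 1030 genes were higher and 871 lower in BB than in AABB, instead of 687 and 513. Without scaling 574 were higher and 699 lower, with scaling over BB and AABB alone 704 and 487, with a floor of 5 FPKM 531 and 396, and without the trend of length and GC content 630 and 375, of which 509 and 291 were shared with the calls above. Leaving out the floor gave 687 and 513, which says little of stability because a gene below 1 FPKM in both columns can hardly reach 2-fold with a pseudocount of 1 FPKM. No named gene and no list median past 2-fold changed direction under these settings. Of 126 named genes past 2-fold, 7 ended within it without scaling (Jak1, Esr1, Ly6a, Wnt5a, Wdfy1, Cdon, Serinc3), 3 with scaling over BB and AABB alone (Vamp8, Nat6, Lipt1) and 22 without the trend. The pseudocount moved 25 of 213 named genes by over 1.5 times and the trend removal 6 of 212. For list medians, the floor of 5 FPKM moved 3 of 31, and the pseudocount and the missing floor moved 2 of 32 each. Pooled columns without depth limit every value here to a description of those columns.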

Other observations

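Some genes separated BB from each of the 5 other day 6 columns by at least 2-fold, a pattern chosen after the values were seen. BB was below all others for 15 genes and above all others for 6, beside 0 and 2 for A, 5 and 23 for B, 33 and 68 for Null, 35 and 159 for AB and 32 and 96 for AABB. Mup10, a major urinary protein gene, was 41.6 in Null, 42.6 in B, 43.3 in A, 0.0688 in BB, 163 in AB and 12.1 in AABB. Ly6d was 188 in Null, 48.0 in B, 10.8 in A, 2.35 in BB, 17.6 in AB and 17.6 in AABB. Coro2a was 1.99 in BB, and the other columns ranged from 11.1 in B to 39.4 in Null. Zhx2, a transcriptional repressor gene, was 0.791 in BB and between 6.11 in A and 10.6 in Null elsewhere. Cela1, which encodes an elastase, was 0.954 in BB and between 7.03 in B and 14.0 in Null elsewhere. On the high side, Agtr2, the type 2 angiotensin receptor gene, was 4.90 in BB and at most 0.848 in any other column, and Fbln7 was 38.7 in BB and at most 17.1.

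B, A and BB carry single-gene Stat5a or Stat5b knockout alleles by their labels, and Null, AB and AABB do not. Of the 13117 genes compared, 22 had each of the first 3 columns at least 2-fold above each of the others, and 11 at least 2-fold below. This pattern too was chosen after the values were seen, and other ways to split the 6 columns were not counted. In some of the 22 genes AB also stood far below Null and AABB, as in H2-K2 (0.483 in AB, 13.3 in Null, 14.6 in AABB). In others, such as Ly6c2, it did not. Ly6c2 was 18.0 in B, 17.9 in A and 18.7 in BB, beside 0.975 in Null, 2.13 in AB and 0.528 in AABB. Gm10136 was 17.4 in B, 36.7 in A and 55.5 in BB, beside 0.606 in Null, 0.342 in AB and 0.670 in AABB. Its BB over AABB log2 ratio of 5.08 was the highest of all genes. Several genes of the major histocompatibility complex are in this set, among them H2-Q2 at 41.4 in B, 39.1 in A and 49.3 in BB, beside 14.2 in Null, 1.20 in AB and 12.9 in AABB. Timp4 and Fabp3 are on the low side, with Timp4 at 13.8 in B, 15.5 in A and 17.4 in BB, beside 105 in Null, 46.9 in AB and 76.6 in AABB.

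BC018473, a transcript named by its clone, was 24.8 in Null, 0.0165 in B, 0.0170 in A, 0.0101 in BB, 0.00817 in AB and 120 in AABB. Its log2 ratio of BB over AABB was −6.90 at day 6 and −8.81 at parturition.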
